A study of Mus musculus with 2 samples.

Results

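The Hippo kinase core and its angiomotin partners were followed in embryonic fibroblasts by the genes Stk3, Stk4, Sav1, Lats1, Lats2, Nf2, Stk38, Amot, Amotl1 and Amotl2. These 10 genes, of 27579 gene names with a usable probe, were taken by name from the array files and had 25 of the 41174 probes. Total RNA came from C57BL/6J mouse embryonic fibroblasts (MEFs, fibroblasts grown in culture from embryos). The cells were either LATS2-/- (labelled KO) or LATS2+/+ (labelled WT), both untreated. KO and WT serve as label names only, since Lats2 had a higher level under the KO label on 3 of its 4 probes. On 1 array the KO RNA carried the red dye Cy5 and the WT RNA the green dye Cy3, and on the other array the dyes were exchanged. The labels give neither the age of the embryos, the number of embryos or cultures behind each RNA, nor the part of Lats2 that was deleted. Both arrays were assumed to share 1 extract per genotype, so each genotype counted as 1 replicate and no test between genotypes was possible.

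In the Hippo pathway the MST kinases (products of Stk3 and Stk4), bound to the scaffold salvador (Sav1), phosphorylate and activate the LATS kinases. LATS kinases in turn phosphorylate the coactivators YAP and TAZ, which keeps them out of the nucleus and away from the TEAD transcription factors. Merlin (Nf2) recruits LATS to the plasma membrane, NDR1 (Stk38) is a kinase of the same family as LATS, and angiomotins are junction and actin-binding proteins that bind YAP. In fibroblasts this pathway responds to cell density and to tension on the actin cytoskeleton.

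Promoter sequences are shown for the members that crossed 2-fold (Amot and Amotl2), for Sav1, which holds the same motif as Amotl2 and did not pass the spread between arrays, and for the targeted gene Lats2. RefSeq windows (GRCm38.p6) from 250 bases before to 50 after the start site were found for 9 of the 10 genes, in 11 windows. They were searched on both strands for GGAATG, which reads as CATTCC from the opposite strand and is the core of the element that TEAD factors bind, and a match is printed in capitals. The 250 bases before the start of Amotl2 (chr9:102717554-102717803, plus strand), of Amot (chrX:145487640-145487889, minus strand) and of Sav1 (chr12:69987003-69987252, minus strand) read 5′ to 3′ as below, with the last base next to the start site. For Lats2 the 30 bases around the match just after the start of 1 of its 2 windows are given (chr14:57746102-57746131, minus strand).
Amotl2: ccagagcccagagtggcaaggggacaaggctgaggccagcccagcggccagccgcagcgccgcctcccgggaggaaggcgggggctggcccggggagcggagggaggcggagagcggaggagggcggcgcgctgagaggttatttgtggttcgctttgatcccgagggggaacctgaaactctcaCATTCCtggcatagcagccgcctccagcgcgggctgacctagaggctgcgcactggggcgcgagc
Amot: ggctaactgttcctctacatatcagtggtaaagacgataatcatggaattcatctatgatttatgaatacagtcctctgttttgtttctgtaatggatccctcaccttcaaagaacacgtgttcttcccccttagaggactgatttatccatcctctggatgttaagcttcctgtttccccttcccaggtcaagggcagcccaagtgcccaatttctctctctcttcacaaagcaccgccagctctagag
Sav1: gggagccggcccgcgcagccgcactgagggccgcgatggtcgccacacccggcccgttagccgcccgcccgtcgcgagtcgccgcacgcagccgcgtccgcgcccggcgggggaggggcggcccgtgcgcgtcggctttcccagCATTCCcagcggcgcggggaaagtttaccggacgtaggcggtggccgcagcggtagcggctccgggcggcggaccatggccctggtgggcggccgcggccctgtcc
Lats2: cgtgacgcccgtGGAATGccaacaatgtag
The motif lay 65 bases before the start of Amotl2 and 106 bases before that of Sav1, and it began at base 5 after the start of Lats2. Thus 3 of the 11 member windows held it, and so did 14.7% of the 32851 promoter windows of this length. Amot, which like Amotl2 was called at 2-fold, had no match in its window. A match is a string of letters in a window and not a measured binding site.

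The median signal of a channel ranged from 58.2 to 98.5 units over the arrays, no spot was saturated, and no member probe carried an outlier flag. Values are log2 ratios of KO over WT after background correction and loess. Levels are channel intensities in arbitrary units and can be compared between RNAs for a probe, but not between probes. Where the levels of the 2 RNAs are said below not to overlap, this describes 2 arrays counted as 1 replicate. The share of all probes without overlap is not given here. Between the arrays, the log2 ratio of 1 probe had an SD of 0.14 over 22656 probes well above background in both RNAs. If the arrays share 1 extract per genotype, as assumed, this SD measures hybridisation and dye error only. A probe was called when it differed at least 2-fold (log2 ratio of 1) on each array with the same sign, and was said to lie beyond the spread when both arrays had the same direction and their mean was at least 2 SD (0.27, or 1.21-fold). Either rule also required the probe to be well above background on both arrays in the RNA where it was higher.

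The cells were checked against fibroblast markers. All 13 fibroblast genes with a usable probe were detected in at least 1 RNA and 12 in both, the exception being Vim, whose probe was well above background in the WT RNA but not on both arrays in the KO RNA. Their summed level was 132993 and 137147 in the KO RNA and 168945 and 169725 in the WT RNA, with 8 markers lower and 1 (Fn1, 0.90) higher beyond the spread, where 22.4% of all detected genes were lower and 21.5% higher. The 8 lower include Vim (-0.89), whose probe was well above background on only 1 array in the KO RNA, so a loss of its transcript is not shown. Col6a1 was the 1 fibroblast marker called at 2-fold (-1.43 and -1.18 on the arrays). None of the 6 endothelial and none of the 4 muscle genes was detected. Of 8 epithelial genes only Krt5, Krt14 and Krt19 were detected, and Cdh1, Tacstd1, Krt8, Krt18 and Cldn4 were not. The summed level of these 8 genes was 830 and 884 in the KO RNA and 592 and 610 in the WT RNA, and Krt19 had a log2 ratio of 2.12. Undetected genes add to such a sum, because background correction added an offset of 50. The 6 endothelial genes, none detected, summed to 393 and 415 in the KO RNA and 389 and 415 in the WT RNA. The adipocyte and blood sums below hold such a part too. Of 5 adipocyte genes Pparg (2.83) and Fabp4 were higher beyond the spread in the KO RNA. Fabp4 did not rise well above background in the WT RNA on either array, so that its brightest probe gives only a bound, at least 1.95-fold higher under the KO label. The 5 genes had summed levels of 2532 and 2775 against 585 and 616, while Adipoq, Plin and Cfd were not detected in either RNA. Among 6 genes of blood cells Cd14 was lower (-1.05), Cd68 (0.14) and Csf1r (-0.05) did not pass the spread, and Ptprc, Emr1 and Itgam were not detected. Summed over those blood genes the level was 547 and 550 in the KO RNA and 739 and 745 in the WT RNA. Among the 6 neural genes Nes (-0.30) lay beyond the spread, and Sox2, Gfap and Olig2 were not detected. The part of these marker differences in the member ratios was not tested.

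Lats2, the targeted gene, was higher in the RNA labelled KO on 3 of its 4 probes. The most 3′ probe (A_52_P315345, chr14:56644080-56644139, minus strand; probe positions are on NCBI36/mm8, another build than the promoters) had a level of 7735 in the KO RNA and 5417 in the WT RNA on the array with KO in Cy5, and of 8353 and 5462 on the array with KO in Cy3. Both KO levels were above both WT levels, and the KO RNA held 148% of the WT level (log2 ratio 0.56 ± 0.07, SD between arrays). A second probe, A_51_P331525, shares 32 bases with it and had levels of 3887 and 3711 against 2481 and 2656 (0.56 ± 0.12), and A_51_P133349, 1.17 kb further 5′, gave 0.63 ± 0.16. Its levels were 578 and 580.0 in the KO RNA and 405 and 347 in the WT RNA.

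The remaining Lats2 probe went the other way. A_52_P425064 (chr14:56676512-56676571) lies 32.4 kb 5′ of the first and is annotated in the files as an alternatively spliced form, LATS2C. Its level was 264 in the KO RNA and 299 in the WT RNA on the array with KO in Cy5, and 231 against 329.5 on the other array. The KO level was the lower on each array, at 78.6% of WT on average (log2 ratio -0.35 ± 0.23). On the array with KO in Cy5 alone its ratio of -0.18 did not pass the spread, and on the other array alone it was -0.51. The 3 other probes exceeded it by 0.91, 0.91 and 0.97 on the log2 scale, with differences of 0.69 to 0.83 on the array with KO in Cy5 and 0.99 to 1.26 on the array with KO in Cy3.

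All 4 Lats2 probes were well above background in both RNAs. Because 3 of them were higher in the RNA from cells labelled as lacking the gene, the 2 samples are named by their label (the RNA labelled KO or labelled WT), and every direction below rests on those labels. Ankrd1 (3.54) and Cyr61 (0.68, named after its value had been seen), target genes of YAP, which LATS kinases restrain, were higher in the RNA labelled KO. Whether the labels were exchanged was not tested. A deletion elsewhere in the gene need not be seen by these probes, and where the probes lie relative to the deletion is not given in the sources used here. Of 5293 genes with several probes well above background in both RNAs, 1.44% had probes beyond the spread in opposite directions. Lats2 was the 1 member among 7 such genes of the set. Those genes were not matched to the 4 probes of Lats2, and more probes leave more room for a split or a wide range. The range over its probes was 0.97, against a median range of 0.19, and 2.34% of those genes had a range at least as wide.

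**Figure D1:**
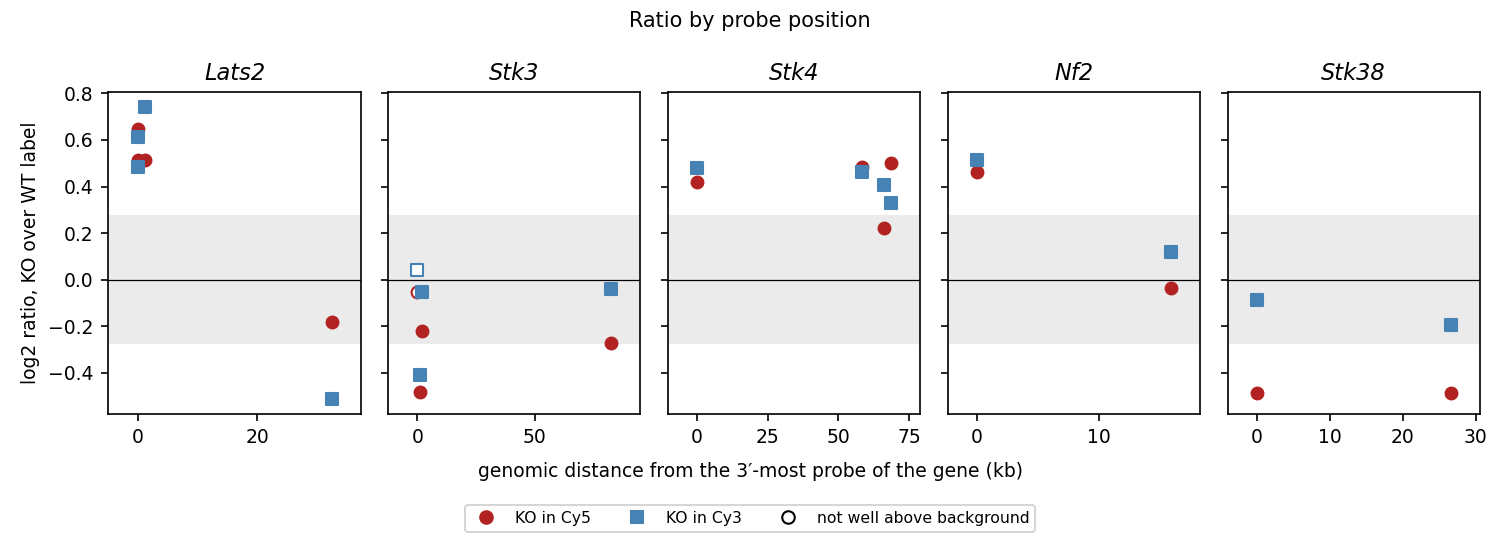
Log2 ratio of KO over WT, by label (vertical axis) for every probe of 5 members with distant probes, against the genomic distance in kb from the most 3′ probe of the gene (horizontal axis, including introns). Circles are the array with KO in Cy5, squares the array with KO in Cy3, open symbols probes not well above background on both arrays in either RNA, and the grey band is 2 SD between arrays. The Lats2 probes within 1.17 kb of the 3′ end sit above the band and the probe 32.4 kb away sits in its lower part or below, while the 4 Stk4 probes stay on the same side of 0 over 68.7 kb.

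Of the 25 member probes 22 passed the background flag in 1 RNA or both, and 21 in both. Called at 2-fold were 2 probes, both higher in the RNA labelled KO, where 2.48% of the 24186 detected probes of the arrays were called higher and 2.07% lower. Beyond the spread lay 14 of the 22 detected probes, 10 higher and 4 lower, against 20.3% of all detected probes higher and 20.9% lower. Probes of the same gene are not independent, so these counts rest on fewer genes. The 10 higher include all 4 probes of Stk4 and 3 of Lats2, of which 2 share 32 bases. The 4 lower include both probes of Stk38. Counts by gene are given below. The other 8 detected member probes did not pass the spread, which does not show that they were equal in both RNAs. Of the 21 probes detected in both RNAs 19 had the same sign on both arrays. The share of all probes with the same sign is not given here, so this count shows nothing particular to the members.

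**Figure D2:**
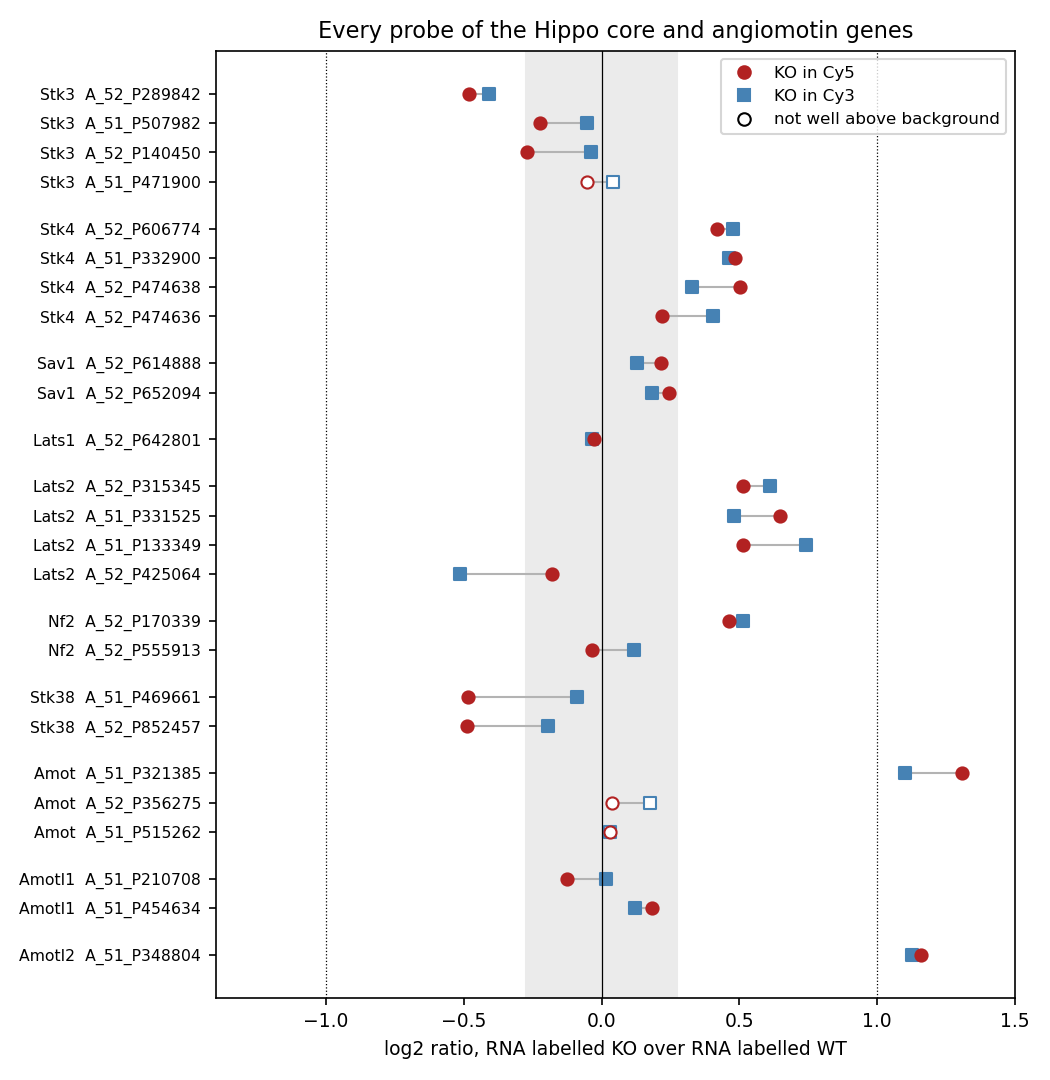
Log2 ratio of KO over WT, by label (horizontal axis), for each of the 25 member probes (rows, grouped by gene and ordered by intensity within a gene). Circles are the array with KO in Cy5, squares the array with KO in Cy3, open symbols probes not well above background on both arrays in either RNA, the grey band 2 SD between arrays and the dotted lines 2-fold. Only the probes A_51_P321385 of Amot and A_51_P348804 of Amotl2 lie past a dotted line.

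The genes of the 2 MST kinases differed in direction. Stk4, which encodes MST1, was higher in the RNA labelled KO on all 4 of its probes, which are spread over 68.7 kb of the gene. Its brightest probe (A_52_P606774, chr2:163846572-163846631, plus strand) had levels of 544 and 546 in the RNA labelled KO and of 407 and 392 in the RNA labelled WT. The levels of the 2 RNAs did not overlap, and the log2 ratio was 0.45 ± 0.04, or 1.37-fold. The other probes gave 0.47 ± 0.02 (A_51_P332900), 0.42 ± 0.12 (A_52_P474638) and 0.31 ± 0.13 (A_52_P474636), all beyond the spread. On the array with KO in Cy5 alone the last of these (0.22) did not pass it. The coordinates of A_51_P332900 and A_52_P474638 span 7793 and 2796 bases, so these 2 probes cross introns and read spliced transcript.

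Stk3, which encodes MST2, was lower on its brightest probe. A_52_P289842 (chr15:34820397-34820456, minus strand) had levels of 917 and 906 in the RNA labelled KO against 1279.9 and 1202 in the RNA labelled WT. The level was 73.5% of WT (log2 ratio -0.44 ± 0.05), with the same order on both arrays. The other 3 probes were dimmer and did not pass the spread. A_51_P507982, 2.07 kb from the most 3′ probe, gave -0.14 ± 0.12. A_52_P140450, 82.7 kb from that probe, was well above background only in the RNA labelled WT, and its ratios of -0.27 and -0.04 did not pass the spread. A_51_P471900 was not well above background on both arrays in either RNA. With the main processing, the lower level of Stk3 therefore rests on 1 probe of 4. Under other processing A_52_P140450 was also lower beyond the spread. It stood at -0.31 without background subtraction, and at -1.24 in Feature Extraction's own ratio and in the authors' table.

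Sav1, the scaffold that holds the MST dimer, was slightly higher on both probes without passing the spread. The brighter probe (A_52_P614888, chr12:70883797-70883856, minus strand) had levels of 3377 and 3124 in the RNA labelled KO and of 2906 and 2854 in the RNA labelled WT. Both KO levels were above both WT levels, but the log2 ratio of 0.17 ± 0.06 was under the limit of 0.27. The second probe, A_52_P652094, gave 0.21 ± 0.05.

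Lats1, the other LATS kinase, had 1 probe (A_52_P642801, chr10:7403063-7403122, plus strand). Its levels were 248 and 258.5 in the RNA labelled KO and 252 and 265 in the RNA labelled WT. The log2 ratio was -0.03 ± 0.01, so no difference was detectable above the spread between arrays, and a difference under 1.21-fold in either direction would not have been seen by this rule.

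Nf2, which encodes merlin, differed between its probes. The 3′ probe (A_52_P170339, chr11:4666399-4666458, minus strand) had levels of 598.7 and 598.8 in the RNA labelled KO and of 434 and 419 in the RNA labelled WT. The 2 RNAs did not overlap, and the ratio was 0.49 ± 0.04, or 1.40-fold. The second probe (A_52_P555913), 15.9 kb further 5′ and with coordinates that span 2143 bases, was dimmer, with levels of 117 and 124 in the RNA labelled KO and of 120.0 and 115 in the RNA labelled WT. Its ratio of 0.04 ± 0.11 did not pass the spread and its sign differed between arrays.

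Stk38, which encodes the LATS-related kinase NDR1, was lower on both probes, but most of that came from 1 array. A_51_P469661 (chr17:28698720-28698779, minus strand) had a level of 1342 in the RNA labelled KO and 1879 in the RNA labelled WT on the array with KO in Cy5, and of 1548 and 1646 on the other array. The ratio was -0.49 on the first and -0.09 on the second, for a mean of -0.29 ± 0.28. A_52_P852457 gave -0.49 and -0.19 (mean -0.34 ± 0.21). On the array with KO in Cy3 alone neither probe passed the spread, and the brighter one also failed to pass it with an offset of 10, without background subtraction, in Feature Extraction's own ratio and in the authors' table.

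The angiomotins split into 2 genes that crossed 2-fold and 1 that did not pass the spread. Amot, the founding member of the family, had levels of 6623 and 6300.4 in the RNA labelled KO against 2676 and 2935 in the RNA labelled WT on its bright probe A_51_P321385 (chrX:140693003-140693062, minus strand). The lowest KO level was more than the highest WT level by a wide margin on both arrays, and the log2 ratio was 1.20 ± 0.15, or 2.30-fold. The gene's 2 other probes were not well above background on both arrays in either RNA. A_51_P515262 is assigned by the files to a span of 9 bases and A_52_P356275 lies 5.76 kb from the most 3′ probe, and they gave 0.03 and 0.11. Since dim probes are pulled towards 0 by the offset of 50, these values have no order. In Feature Extraction's own ratio, which has no offset, they were 0.59 and 0.95.

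Amot lies on the X chromosome, so the sex of the embryos was looked at after its value had been seen. All 4 probes of Xist, the RNA that coats the inactive X, were well above background in both RNAs, with log2 ratios from -0.08 to 0.41, and 0 of 7 probes of Y-linked genes (Ddx3y, Eif2s3y, Jarid1d and Uty) were well above background in either. The 713 X-linked probes detected in both RNAs had a median log2 ratio of 0.08.

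Amotl2 had 1 probe (A_51_P348804, chr9:102590845-102590904, plus strand), with levels of 5411 and 5484 in the RNA labelled KO and of 2422 and 2509.7 in the RNA labelled WT. The values of each RNA lay close together on both arrays, and the log2 ratio was 1.14 ± 0.02, or 2.21-fold. Amotl2 is also known as a transcriptional target of YAP. Amotl1 did not pass the spread on either probe. A_51_P210708 (assigned to 34 bases at chr9:14292363-14292396) had levels of 436 and 455 in the RNA labelled KO and of 476 and 449.9 in the RNA labelled WT, with ratios of opposite sign on the arrays (-0.13 and 0.02). A_51_P454634 gave 0.15 ± 0.04. The arrays measure RNA from whole cultures, in which fewer cells of a type and less RNA per cell cannot be told apart.

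**Figure D3:**
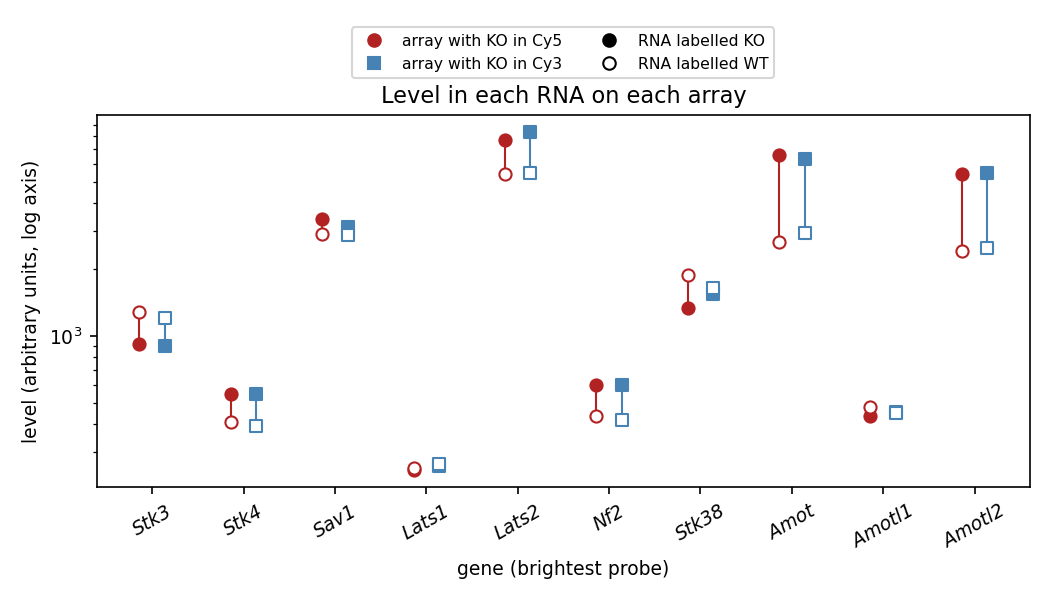
Level of the brightest probe of each member (vertical axis, arbitrary units after loess and Aquantile, log scale) in the RNAs labelled KO (filled) and WT (open), for the array with KO in Cy5 (red circles) and the array with KO in Cy3 (blue squares), joined within an array. Amot and Amotl2 show the longest lines on both arrays, and Lats1 and Amotl1 almost none, with levels between 248 and 265 for Lats1. Heights may be compared between RNAs of 1 gene but not between genes.

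Ordered by the log2 ratio of the brightest probe, the members ran from Amot (1.20) and Amotl2 (1.14) through Lats2 (0.56), Nf2 (0.49), Stk4 (0.45), Sav1 (0.17), Lats1 (-0.03), Amotl1 (-0.06) and Stk38 (-0.29) to Stk3 (-0.44). Between neighbours in this order only the step from Amotl2 to Lats2, of 0.58, was larger than 0.39. That limit is 2 SD of a difference between the ratios of 2 probes on 1 array. For means of both arrays, as used here, the limit is 0.27, which the step from Stk4 to Sav1 (0.28) barely passed as well. By that probe 2 genes were called higher and none lower, where 2.95% of the 15877 detected genes were called higher and 2.59% lower. Beyond the spread, 5 members were higher, 2 lower and 3 did not pass, against 21.5% of detected genes higher and 22.4% lower. The median over the 10 members was 0.31, and over all detected genes -0.0032. When all probes of a gene were averaged in place of taking the brightest, Amot moved to 0.45, Lats2 to 0.35, Nf2 to 0.26 and Stk3 to -0.19.

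The rest of the pathway was counted from 4 lists, by the brightest probe of each gene. Of 77 genes with a usable probe 73 were detected. At 2-fold 2 were called higher and 1 lower, where 2.95% and 2.59% of all detected genes were called. Beyond the spread 25 were higher and 7 lower, against 21.5% and 22.4% of all detected genes, and the median log2 ratio was 0.13. These shares are the background for each list below.

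Upstream and scaffold genes, which carry signals from junctions and cell polarity, had 21 detected members of 23. None was called at 2-fold, 8 were higher and 2 lower beyond the spread, and the median was 0.15. Highest were Inadl (0.83, or 0.48 averaged over its probes), a polarity scaffold, and Jub (0.70), the LIM protein ajuba that binds LATS kinases. Lowest was Scrib (-0.64), also a polarity scaffold.

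Adaptors and partners of the core kinases ranged from -1.42 to 2.21. Of 17 detected genes 4 were higher and 3 lower beyond the spread, near the 21.5% and 22.4% of all detected genes, with a median of 0.09. Rassf6, of the family of proteins that bind MST kinases, was called higher, with a log2 ratio of 2.28 on the array with KO in Cy5 and 2.15 on the other. Stk38l, which encodes NDR2 and is the paralogue of Stk38, was called lower, with -1.37 and -1.47. Thus both NDR genes had negative ratios, but only Stk38l was called, and its difference from Stk38 was not tested. The ubiquitin ligase gene Nedd4 reached a mean of 1.05 but 0.91 on the array with KO in Cy5, so it was not called, and Rassf2 stood at -0.85. Averaged over their probes these 2 genes stood at 0.54 and -0.48.

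All 25 kinases and phosphatases that act on the core were detected, and none was called. Beyond the spread lay 6 higher, near the 21.5% of all detected genes, and 2 lower, where that share was 22.4%. The median was 0.06, with a range from -0.33 (Taok2) to 0.56 (Taok3), both kinases of the TAO family that can phosphorylate MST kinases. The next were Stk10 (0.44) and Stk11 (-0.29), the latter encoding the kinase LKB1. Averaged over their probes, Taok2 stood at -0.11, Taok3 at 0.34 and Stk10 at 0.21, so that Taok2 and Stk10 were no longer as large as the limit of 0.27.

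Effectors had the highest median of the lists, 0.54 over 10 genes, with 7 higher beyond the spread and none lower, against 21.5% and 22.4% of all detected genes. Ankrd1, a target gene of YAP, was called with 3.73 and 3.34 on the arrays, and Tead2 stood at 0.70. Lowest were Tead1 (0.01) and Wwtr1 (0.05), which encodes TAZ. Ctgf, a further YAP target, had no value because its only probe was flagged on the array with KO in Cy3, and with flagged spots kept it stood at 1.78. The list was written with earlier results of these arrays known, so its direction is not independent evidence.

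**Figure D4:**
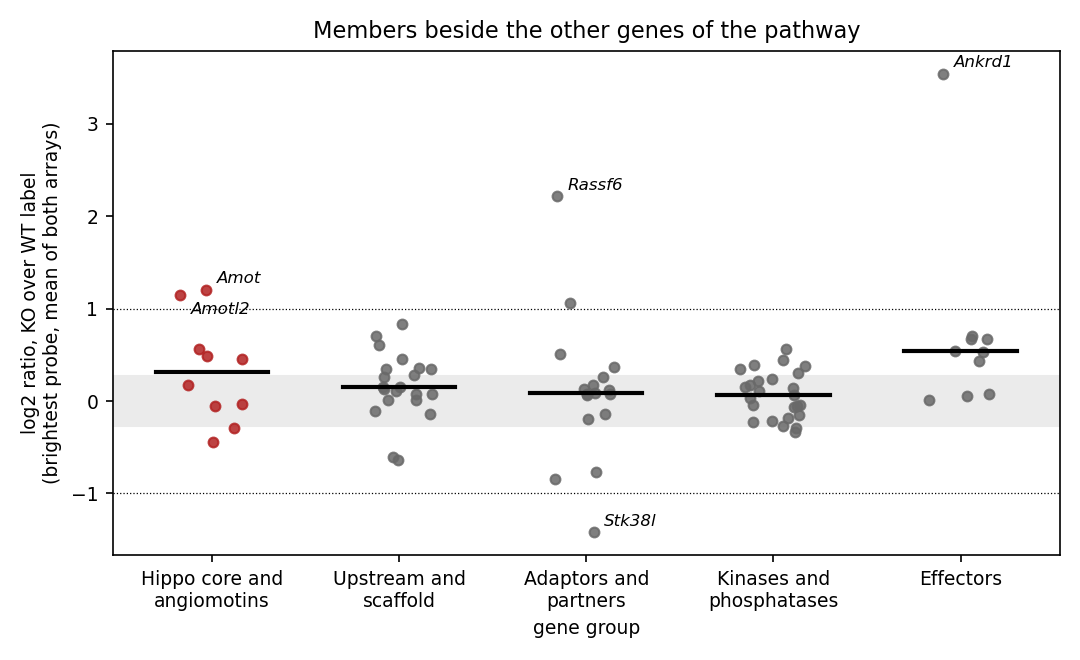
Log2 ratio of KO over WT, by label by the brightest probe of each gene, mean of both arrays (vertical axis), for the 10 members (red) and the detected genes of 4 other pathway lists (grey). Points are spread sideways only for legibility, black bars are medians, the grey band is 2 SD between arrays and the dotted lines are 2-fold. The labelled points are those called at 2-fold on each array: Amot and Amotl2 among the members, and Rassf6, Stk38l and Ankrd1 in the lists.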

How the data were processed

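Total RNA of LATS2-/- and LATS2+/+ MEFs was compared on 2 two-colour arrays with exchanged dyes. The labelling reaction was primed with oligo-dT. Per the file headers, Agilent Feature Extraction 10.5.1.1 gave the deposited mean signal and median local background of each spot as intensity. The authors also deposited its log10 ratio and a table of log2 ratios, which equalled KO over WT of the processed signals. The intensities were background corrected in limma 3.58.1 and R 4.3.3 (normexp, offset 50, which pulls dim ratios towards 0) and normalised by loess within arrays, without the 1639 control spots of 45018 and without outlier spots (390 and 378). Spots of a probe were averaged and the second array's sign was turned. Levels also had Aquantile. A bound ("at least") sets the brighter RNA against the higher of the lowest detected signal and the probe's own signal. The SD between arrays and the rules for a call and for the spread were tested on simulated log2 ratios. Background correction, loess, Aquantile, the background flags and the bound were not tested in this way.

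The labels do not say whether the arrays share RNA extracts. If they do not, the array spread also holds culture differences. The members and gene lists were chosen with earlier results of these data known. Named are all members, and of each list the genes called and the 2 highest and 2 lowest among those detected in both RNAs. A gene that this rule names is not reported here. The place of probes within exons and the probe sequences were not analysed here. Of the list symbols 26 matched no usable probe, some being other spellings of a gene already counted. Alternatives were other background, scaling, filter and spread settings, each array alone, limma and the t-test of the methods. The software also comprised Python 3.11.15 with matplotlib 3.10.9 for the plots, pandas 2.3.3 and numpy 2.4.6 for the tables, and statsmodels 0.14.6 and scipy 1.17.1 for the t-test.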

Additional observations from a re-analysis of the deposited data

How the results depend on the processing

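No paired analysis was possible because there is a lone replicate of either genotype. Over the alternatives run, the 2 called probes (Amot and Amotl2) stayed at 2 except under median centring (0) and the methods' t-test (1 unadjusted, 0 after Benjamini-Hochberg). Each array alone also gave 2, but it could not give fewer, since a call already needs 2-fold on each array. The probes beyond the spread numbered 13 to 19 against 14, and 12 on each array alone, but 0 under median centring, as did the Lats2 probes higher in the RNA labelled KO (3, on each array alone 3, and 0 under median centring). Without loess the SD between arrays is 0.94, which sets that limit at 1.87, while the mean ratios stayed near their size: 0.61 to 0.64 for the 3 higher Lats2 probes, 1.26 for Amot and 1.19 for Amotl2. The median over members ranged from 0.23 (mean over all probes) to 0.35, and from 0.30 to 0.32 on single arrays. Of 225 recomputed probe values 199 moved by less than the SD between arrays, 23 grew, 3 shrank and none beyond the spread reversed. Part of the 199 could not move. Aquantile leaves ratios unchanged and no member probe carried an outlier flag, so these 2 settings repeated the main values. The authors' table repeated Feature Extraction's ratio for every member probe, so the same values entered under both names. The dim probe of Stk38 reached -1.12 and the dim Stk3 probe A_52_P140450 -1.24 in Feature Extraction's ratio, which has no offset. With a limit of 1 SD, 5 more probes (of Stk3, Sav1 and Amotl1) counted as beyond the spread.

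The number of arrays limits the precision: no value has a biological replicate, probes near background have compressed ratios, and for Amot, Lats1 and Amotl2 a single detected probe stands for the gene.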
